A study of Mus musculus with 9 samples.

Results

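Fibrinogen is made from the Aalpha, Bbeta and gamma chains, encoded in the mouse by Fga, Fgb and Fgg. These 3 genes were taken by symbol from the deposited table of 23420 genes, and all 3 were found. They were chosen by name, with the fed against fasted values of the same libraries already known, so the choice counts as selected on that contrast and their differences between the groups are given as a description, with standard errors (SE) and no test. The libraries came from kidney cortex of male C57/BL6 mice kept on chow under a 12 hour light-dark cycle. In the Fed group (n = 5) the mice had free access to food, and in the Fasted group (n = 4) food was withheld for 16 h before the kidneys were taken and frozen. The labels name no transgene or other agent, and 1 piece of cortex of about 50 mg was used per extraction, so every library holds RNA of many cell types. The comparison asks whether each chain goes with the feeding group or with albumin (Alb), the main secreted protein of the liver, whose RNA varied 40.2-fold between these kidney libraries.

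Fibrinogen is a plasma glycoprotein of paired Aalpha, Bbeta and gamma chains joined by disulfide bonds in the endoplasmic reticulum. Thrombin cuts short peptides from the Aalpha and Bbeta chains, the resulting fibrin polymerises into the clot, and plasmin dissolves it. Hepatocytes make nearly all plasma fibrinogen, and interleukin-6 raises all chains there through STAT3 together with C/EBP and HNF1 factors during the acute-phase response. In the kidney, fibrin deposits are known from glomerular disease, and tubule cells are known to make fibrinogen chains after injury.

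On GRCm38 the chains lie side by side within 42140 bases of chromosome 3. Fgg (ENSMUSG00000033860, chr3:83007724-83015049, plus strand) comes first, Fga (ENSMUSG00000028001, chr3:83026076-83033627, plus strand) follows after a gap of 11026 bases, and Fgb (ENSMUSG00000033831, chr3:83040141-83049863, minus strand) follows 6513 bases further on. Fga and Fgg each have 2 annotated transcripts and Fgb has 1. The first 765 bases of Fgg also lie under Gm30097, a noncoding gene on the minus strand that shares 115 exon bases with Fgg and is not a row of the table. Whether the counting used strand is not given in the sources used here. The promoters are shown because the chains share this locus while Fgb varied with Alb, and Fga and Fgg with each other, across the libraries. Each line holds the 250 bases before the RefSeq start, 5′ to 3′ on the strand of the gene (GRCm38.p6), from chr3:83025903-83026152 (plus), chr3:83049864-83050113 (minus) and chr3:83007474-83007723 (plus). Capitals mark CTGGGA, the core of the acute-phase element that STAT3 is known to bind, and ATTAAC, 1 arm of the HNF1 site. The RefSeq start of Fga lies inside the GENCODE gene, so the end of its window overlaps the gene given above.
Fga: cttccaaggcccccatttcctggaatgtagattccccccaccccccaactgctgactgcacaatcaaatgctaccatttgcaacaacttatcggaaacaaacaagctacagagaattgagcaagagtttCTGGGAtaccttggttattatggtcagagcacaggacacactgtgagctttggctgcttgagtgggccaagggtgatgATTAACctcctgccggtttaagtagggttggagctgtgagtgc
Fgb: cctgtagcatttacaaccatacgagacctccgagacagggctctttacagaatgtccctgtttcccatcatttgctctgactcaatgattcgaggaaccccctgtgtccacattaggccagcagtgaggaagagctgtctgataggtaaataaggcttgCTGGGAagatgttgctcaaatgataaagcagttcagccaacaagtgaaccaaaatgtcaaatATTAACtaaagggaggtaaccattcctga
Fgg: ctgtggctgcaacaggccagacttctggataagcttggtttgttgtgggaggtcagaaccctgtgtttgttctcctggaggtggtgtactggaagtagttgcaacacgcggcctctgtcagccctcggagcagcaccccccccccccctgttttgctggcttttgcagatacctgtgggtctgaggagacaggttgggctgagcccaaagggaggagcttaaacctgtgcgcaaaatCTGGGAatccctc

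The letters were searched on both strands and no match overlapped another. CTGGGA occurred in each of the 3 promoters, with its first base 121 bases before the start in Fga, 91 in Fgb and 13 in Fgg, and it is common: 27.0% of 32851 RefSeq mouse promoters of this length held it. ATTAAC lay 43 bases before the start of Fga and 29 bases before that of Fgb, against 6.43% of all promoters, and these letters were not in the Fgg window. AGGTCA, a nuclear receptor element, was found in Fgg alone of the 3 windows and in 14.02% of all promoters. GTAAACA, a forkhead element, was in none of the 3 windows and in 3.17% of all promoters. Fga and Fgb thus both held CTGGGA and ATTAAC, and a match of letters says nothing about binding.

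Fga, the chain that carries the long alphaC region and a thrombin cleavage site, had 722, 1616, 1268, 900 and 1212 normalized counts in Fed 1 to 5 and 3049, 3878, 2374 and 3672 in Fasted 1 to 4. Normalized counts are reads divided by 1 size factor per library, so that 1 read was worth 0.744 to 1.32 of them. Every fasted library lay above every fed library, which was also the case for 1150 of 15096 genes tested (7.62%). The means were 1144 ± 346 (SD, n = 5) in Fed and 3243 ± 678 (SD, n = 4) in Fasted. On the log2(value + 1) scale the difference was 1.53 (SE 0.22), or 2.89-fold. It lay between 1.38 and 1.67 when each library was left out in turn. In bulk cortex, more cells that express a gene and more RNA per cell cannot be told apart.

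Fgg, the gamma chain, holds the platelet-binding and main cross-linking sites of fibrin. Its values were 306, 987, 513, 474 and 902 normalized counts in Fed 1 to 5 and 985, 1639, 874 and 1661 in Fasted 1 to 4. The groups overlapped: Fed 2 and Fed 5 lay above Fasted 3, and Fed 2 also lay above Fasted 1. The means were 636 ± 293 (SD, n = 5) and 1290 ± 419 (SD, n = 4), a log2 difference of 1.09 (SE 0.33), or 2.13-fold. Leaving out a library moved that difference between 0.86 (without Fed 1) and 1.28 (without Fed 2).

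Fgb, the Bbeta chain with the other thrombin cleavage site, had 61.0, 736, 322, 191 and 90.5 normalized counts in Fed 1 to 5 and 252, 303, 512 and 525 in Fasted 1 to 4. Its highest and its 3 lowest values were all in fed libraries, so the fasted values lay inside the fed range. The fed libraries alone spanned 12.1-fold, against 2.24-fold for Fga and 3.23-fold for Fgg. The means were 280 ± 275 (SD, n = 5) and 398 ± 141 (SD, n = 4), and the log2 difference of 0.98 had an SE of 0.60. That difference was 0.58 without Fed 1 and 1.47 without Fed 2, and it was 0.51 in the fits of the recovered reads with edgeR and with DESeq2. The chains rested on 838 to 4130 reads per library for Fga, 390 to 1868 for Fgg and 82 to 800 for Fgb, so counting error was small beside these differences.

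**Figure D1:**
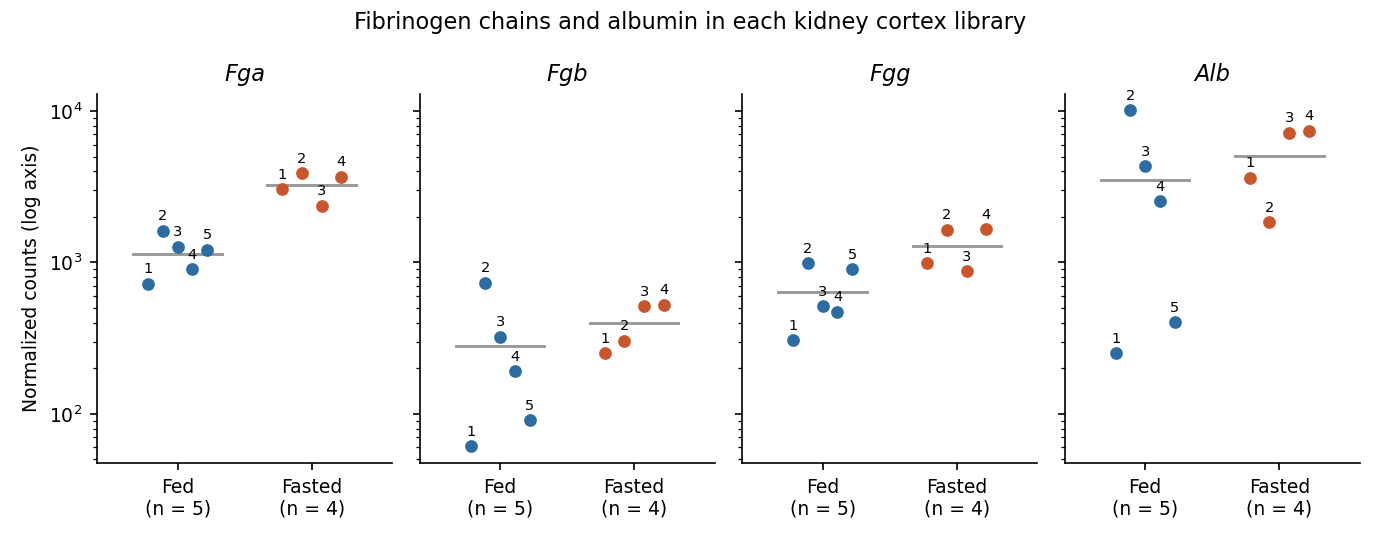
Normalized counts (log axis) of Fga, Fgb, Fgg and Alb in each library, numbered as Fed 1 to 5 (blue) and Fasted 1 to 4 (orange), with horizontal lines at the group means. The 4 fasted libraries lie above the 5 fed libraries for Fga, at 2374 or more against 1616 or less, while the groups overlap for Fgb, Fgg and Alb.

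Alb had 251, 10091, 4321, 2524 and 402 normalized counts in Fed 1 to 5 and 3623, 1848, 7186 and 7396 in Fasted 1 to 4. The order of the fed libraries by Alb (1, 5, 4, 3, 2) was the order by Fgb. The group means of Alb were 3518 ± 4038 (SD, n = 5) and 5013 ± 2729 (SD, n = 4), a log2 difference of 1.42 (SE 0.97) that did not pass the test (limma, adjusted p = 0.38). In the authors' deposited table, whose log2 fold changes are pulled towards 0, the values were 1.23 for Fga, 0.14 for Fgb, 0.58 for Fgg and 0.09 for Alb. They are not the same measure as the differences of mean log2 values given here. Those differences came to 1.98-fold for Fgb and 2.68-fold for Alb, while the ratios of group means were 1.42 and 1.43.

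The relation to Alb was tested on deviations from the group means, which leaves out the difference between fed and fasted. Over the 9 libraries, log2 Fgb correlated with log2 Alb with r = 0.962 (exact permutation within groups, two-sided, p = 0.00104, adjusted p = 0.00625 over the 6 pairs of 3 chains and Alb). Spearman's rho was 0.983 (exact permutation p = 0.00347, adjusted p = 0.0208). Without Fed 1 and Fed 5, the libraries farthest from the median of Alb, r was still 0.882. When each library was left out in turn r stayed between 0.940 and 0.977, but the exact adjusted p was 0.0625 without Fed 1 and 0.0729 without Fed 2. With group differences kept in, r was 0.968 and rho 0.95, and r was 0.871 without Fed 1 and Fed 5. Those values hold the contrast on which the chains count as selected, so they are given with no test.

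For Fga the same relation to Alb was r = 0.474 (exact permutation p = 0.303, adjusted p = 0.411; rho 0.517, p = 0.213, adjusted p = 0.319). It was 0.196 without Fed 1 and Fed 5, lay between 0.127 (without Fed 1) and 0.635 (without Fasted 3) with 1 library left out, and was 0.807 without Fed 5 and Fasted 2 (exact permutation adjusted p = 0.0625). The removal of Fed 5 and Fasted 2 together was chosen after the data were seen. No value over all libraries is given here for Fga, since its fed and fasted libraries form separate clusters.

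For Fgg the relation to Alb with group means removed was r = 0.295 (exact permutation p = 0.514, adjusted p = 0.514; rho 0.40, p = 0.390, adjusted p = 0.390). It was 0.261 without Fed 1 and Fed 5, -0.16 without Fed 1, -0.04 without Fed 2, 0.624 without Fed 5 and 0.817 without Fed 5 and Fasted 2 (exact permutation adjusted p = 0.0625). Over all 9 libraries with group differences kept in, Fgg and Alb gave r = 0.475, also given with no test. That value was 0.111 without Fed 1 and Fed 5, 0.0751 without Fed 1 alone and 0.606 without Fed 5 alone. It was 0.805 without Fed 5 and Fasted 2, a pair left out only after the data were seen.

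Fga and Fgg deviated together: with group means removed, r was 0.899 (exact permutation p = 0.00833, adjusted p = 0.025; rho 0.867, adjusted p = 0.0302). Without Fed 1 and Fed 4, the libraries farthest from the median of Fgg, r was 0.774. Across the 9 sets with 1 library left out r lay between 0.830 and 0.955. The exact adjusted p then reached 0.0625 without Fed 1, 0.0729 without Fed 2, 0.05 without Fasted 2, 0.0833 without Fasted 3 and 0.05 without Fasted 4. For Fgb, r was 0.605 with Fga (exact permutation p = 0.160, adjusted p = 0.320) and 0.454 with Fgg (exact permutation adjusted p = 0.411). Without Fed 5 and Fasted 2 these were 0.822 and 0.853 (exact permutation adjusted p = 0.0625 each), and r for Fga with Fgg was 0.930. The differences between these correlations were not tested.

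**Figure D2:**
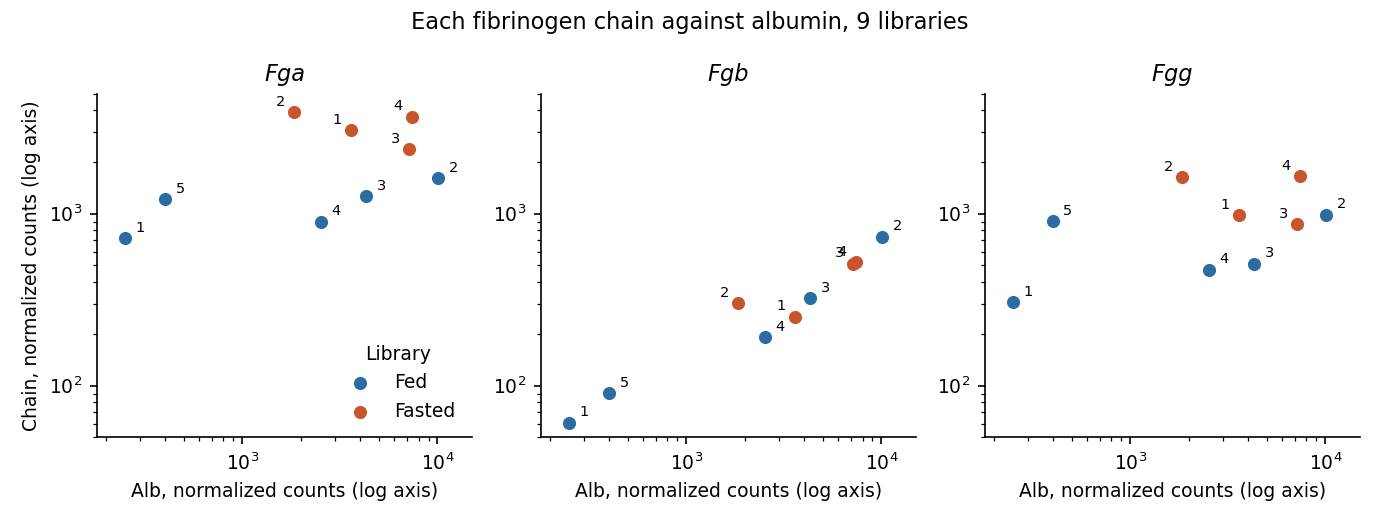
Each chain (vertical, normalized counts, log axis) against Alb (horizontal, normalized counts, log axis) in 5 fed (blue) and 4 fasted (orange) libraries, numbered by library. Fgb is mostly higher where Alb is higher, in both groups. An exception is Fasted 2 (Alb 1848, Fgb 303), with more Fgb than Fed 4 (Alb 2524, Fgb 191) and Fasted 1 (Alb 3623, Fgb 252). For Fga, the fasted libraries lie above the fed ones at like Alb.

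Ratios between chains were set against Alb after the correlations above were known, so they describe the same pattern and are given with no test. Within groups log2 Fgb varied more (SD 1.13) than log2 Fga (SD 0.40) or log2 Fgg (SD 0.62), so a ratio to Fgb mostly carries Fgb. With group means removed, the log2 ratio of Fga to Fgb had r = -0.952 with log2 Alb over the 9 libraries, and the ratio of Fgg to Fgb had r = -0.895. Without Fed 1 and Fed 5, these r values were -0.902 and -0.846. The ratio of Fga to Fgg had r = 0.03, which changed sign with single libraries left out (-0.437 without Fed 5 to 0.415 without Fed 1).

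With log2 Alb in the limma model beside the group, the log2 difference between fasted and fed was 1.38 (SE 0.22) for Fga and 0.95 (SE 0.35) for Fgg. For Fgb it was 0.13 (SE 0.20), or 1.10-fold, against 0.98 without Alb. Leaving out 1 library gave -0.06 (without Fasted 2) to 0.40 (without Fed 2) for Fgb, 1.19 to 1.58 for Fga and 0.70 to 1.31 for Fgg. In this model 1168 of 15098 genes (7.74%) passed at an adjusted p under 0.05, and the chains are read against that share as values only. The slope on log2 Alb, at equal feeding group, was 0.60 (SE 0.06) for Fgb, 0.10 (SE 0.06) for Fga and 0.10 (SE 0.10) for Fgg. The median slope over all genes tested was 0.00.

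**Figure D3:**
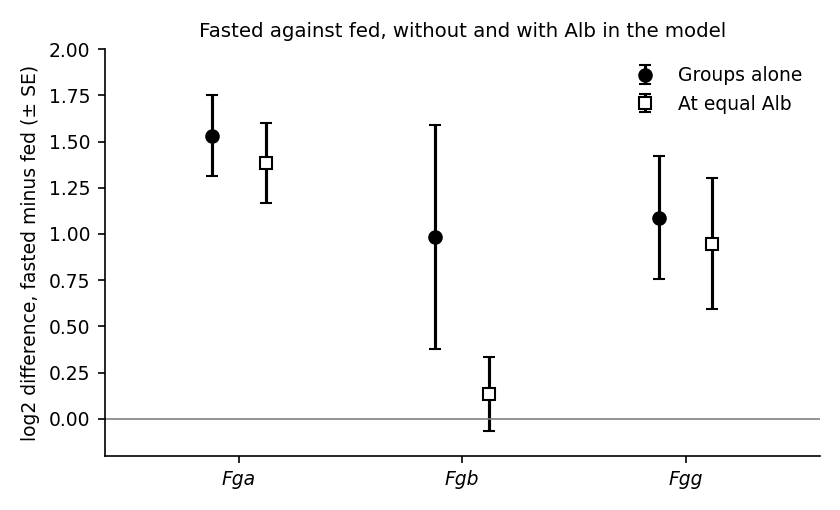
Difference between fasted and fed on the log2(value + 1) scale for each chain, with bars of 1 SE, from the model of the groups alone (filled circles) and with log2 Alb added (open squares). Fga moves from 1.53 to 1.38 and Fgg from 1.09 to 0.95, while Fgb moves from 0.98 to 0.13.

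On the linear scale, each chain was also described as a level for its group plus a fixed amount per Alb. Per 100 normalized counts of Alb, that amount was 6.26 (SE 0.59) for Fgb, 2.29 (SE 5.88) for Fga and 2.19 (SE 3.97) for Fgg. The levels left at 0 Alb for Fgb were 60.1 (SE 32.2) in Fed and 84.3 (SE 40.4) in Fasted normalized counts. Those of Fga were 1063 (SE 321) and 3129 (SE 403), and those of Fgg were 559 (SE 217) and 1180 (SE 272). In that description the Alb part made up 82.7% to 90.0% of Fgb in 6 libraries, 25.7% in Fed 1, 27.8% in Fed 5 and 38.1% in Fasted 2. The difference between fasted and fed at 0 Alb was 24.2 (SE 38.0) for Fgb and changed sign, to -25.3, without Fasted 2. It was 2065 (SE 379) for Fga and 621 (SE 256) for Fgg.

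The direct ratio showed the same libraries apart. Fgb lay between 6.96 and 7.57 per 100 normalized counts of Alb in Fed 2 to 4 and Fasted 1, 3 and 4. It was 24.3 in Fed 1, 22.5 in Fed 5 and 16.4 in Fasted 2, the 3 libraries with the lowest Alb. The same ratio spanned 16.0 to 302 for Fga and 9.78 to 225 for Fgg. Fed 5 and Fasted 2 also had the highest Krt20, a keratin of injured tubule cells, at 132 and 90.0 normalized counts against 6.58 or less elsewhere. Fed 5 had the highest Havcr1, the injury marker KIM-1, at 743 against 104 or less, and Fgg of 902 at Alb of 402. Fed 1, with Alb of 251, had Krt20 of 2.98, Havcr1 of 87.8 and Fgg of 306. Krt20 and Havcr1 were singled out after their values were seen, and their part in the chain levels was not tested. Other members of the tubule injury list did not all go the same way. Fed 5 had the highest Lcn2 (151) and Timp1 (14.9) of the 9 libraries, but the lowest Cdkn1a (86.5), Atf3 (48.7) and Krt19 (9.95). Without Fed 5 and Fasted 2 the log2 differences at equal Alb were 1.21 for Fga, -0.05 for Fgb and 0.74 for Fgg.

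Levels of the 3 chains can be compared only per length, and the exon unions are 3010 bases for Fga, 3810 for Fgb and 2093 for Fgg. These lengths are from GENCODE M21. The annotation used in counting is not given, so the values per kb depend on that choice of lengths. Of the 3 chains summed as normalized counts per kb, Fga made up 44.7% to 65.4%, Fgg 30.4% to 50.3% and Fgb 2.77% to 16.1%. Fgb was the lowest chain per kb in every library. Fga was 2.78 times Fgb per kb in Fed 2, the library with the most Alb, and 16.96 times in Fed 5. Fga exceeded Fgg per kb in 8 libraries and was 0.935 times Fgg in Fed 5. The ratio of Fga to Fgg per kb was 1.35 ± 0.33 (SD, n = 5) in Fed and 1.81 ± 0.27 (SD, n = 4) in Fasted, with overlapping groups.

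**Figure D4:**
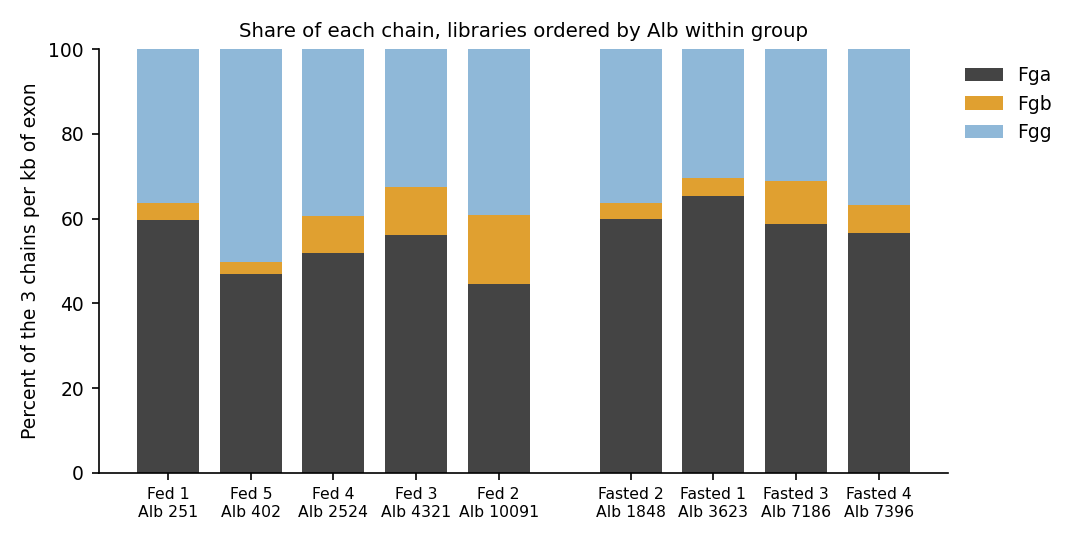
Share of each chain (percent of the 3 chains in normalized counts per kb of exon) in each library, ordered by Alb within the fed and the fasted group, with the Alb normalized counts under each bar. The Fgb share is 3.98% and 2.77% in the fed libraries with Alb of 251 and 402 and 16.1% in the one with Alb of 10091.

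The 30 listed hepatocyte genes include Alb, and all 30 passed the filter on low values. Only Apoc3, the apolipoprotein that restrains lipoprotein lipase, passed the test between fed and fasted. It rose from 228 ± 81.7 (SD, n = 5) to 423 ± 79.3 (SD, n = 4), by 0.94 on the log2 scale (limma, adjusted p = 0.0309). That call ended (adjusted p 0.0563 to 0.0978) when any of Fed 1, Fed 4, Fasted 1, Fasted 2 or Fasted 4 was left out. Among all 15098 genes tested, 863 rose (5.72%) and 793 fell (5.25%) at an adjusted p under 0.05, and the median log2 difference was 0.00. The median over the hepatocyte list was 1.20, and the list summed to 5914 to 32538 normalized counts in fed and 11127 to 24563 in fasted libraries. Whether the RNA of these genes comes from liver or from kidney cells was not tested.

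The slopes on Alb of the other 29 hepatocyte genes, at equal feeding group, ran from 0.03 to 1.47 with a median of 0.87. In 20 of them the slope was above 0.5, as in Tat (1.44), Cps1 (1.44), Ahsg (1.27), Apoa1 (0.90) and F2 (0.64), which encode a tyrosine aminotransferase, the first urea cycle enzyme, fetuin-A, apolipoprotein A-I and prothrombin. The 7 genes below 0.2 were Itih1, Itih2, Gc, Pzp, C8a, Apoh and Apoc3. Fgb, at 0.60, stood below 19 of the 29 genes, and Fga and Fgg each stood below 27 of them. The hepatocyte genes with the highest mean were not alike: Serpina3k had a slope of 1.28, and Ttr (0.23), Gc (0.13), Pzp (0.12) and C8a (0.11) had slopes near those of Fga and Fgg.

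**Figure D5:**
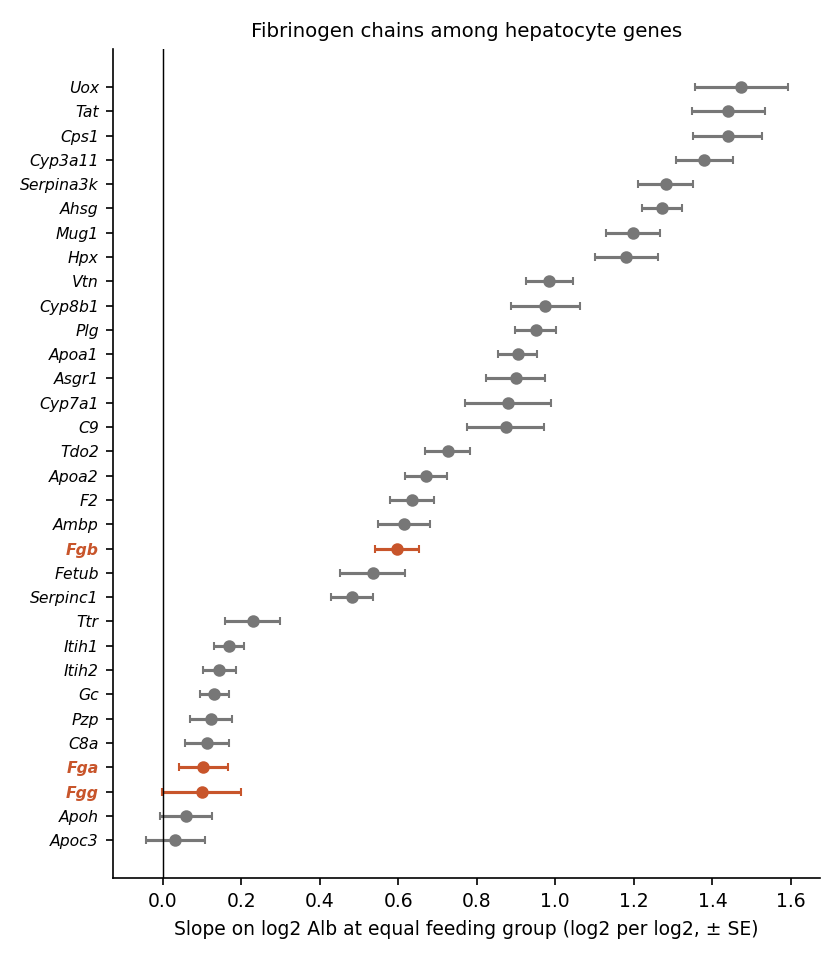
Slope of log2 normalized counts on log2 Alb at equal feeding group (horizontal, with bars of 1 SE) for the 3 chains (orange) and 29 hepatocyte genes (grey), ordered by slope. Fgb, at 0.60, lies in the upper group with Ambp and F2, and Fga and Fgg, both at 0.10, lie in the lower group between C8a and Apoh.

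Likeness of pattern was measured as Pearson's r of log2 values over the 9 libraries, among 13770 genes, and is a description. The 5 genes most like Fgb were Arg1 (r = 0.992), F12 (0.986), Asgr2 (0.983), Tat (0.978) and Ugt2b35 (0.977): arginase, coagulation factor XII, an asialoglycoprotein receptor subunit, tyrosine aminotransferase and a UDP-glucuronosyltransferase. Low values enter these r: in Fed 1, the library with the least Alb, F12 was 2.98, Asgr2 2.23 and Tat 2.23 normalized counts. Alb ranked 15 for Fgb, while Fga ranked 633 and Fgg 760. With group means removed, Arg1, Asgr2, Sec14l2, F12 and F2 led, at r of 0.980 to 0.990, and Alb ranked 20.

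The 5 genes most like Fga were Fam20a (r = 0.977), Rusc1 (0.975), Fermt2 (0.974), Fam63a (0.974) and Hyal1 (0.973). Fgg ranked 100 for Fga over all libraries and 10 with group means removed, where Fam20a again led at r = 0.969, ahead of Olfml2a, Kif13b, Gas7 and Ern1. Those most like Fgg were Mab21l3 (r = 0.963), Apoc3 (0.962), Aldh1a1 (0.961), Fam20a (0.957) and Cyp17a1 (0.941). Fga ranked 18 for Fgg over all libraries and 8 with group means removed, where Ankrd54 led at 0.952, followed by Fam20a, Apoc3, Mab21l3 and Trim16. Alb ranked 2571 for Fga and 2814 for Fgg over all libraries. The r values over all libraries hold the difference between fed and fasted, which for Fga forms separate clusters, and so describe likeness to that difference as well.

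Genes beside the locus gave the local background. Plrg1, a splicing factor gene 5658 bases beyond Fgb, had 740 ± 50.7 (SD, n = 5) normalized counts in Fed and 785 ± 34.8 (SD, n = 4) in Fasted. Its log2 difference of 0.09 did not pass (limma, adjusted p = 0.469). Lrat, the retinol acyltransferase gene 103750 bases before Fgg, had a log2 difference of 0.08 (limma, adjusted p = 0.814). Sfrp2 (-0.14, adjusted p = 0.783) and Rbm46 (-0.73, adjusted p = 0.193) did not pass either, and Npy2r and 1700028M03Rik were below the filter.

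Of the 18 genes tested in the interleukin-6 and STAT3 list, 4 rose and none fell, with a median log2 difference of 0.09. Over all genes tested 5.72% rose and 5.25% fell. Osmr, the oncostatin M receptor, went from 457 ± 74.4 (SD, n = 5) to 671 ± 25.8 (SD, n = 4) normalized counts (log2 0.57, limma, adjusted p = 0.0137). Stat3 itself rose by 0.39 (adjusted p = 0.0146), Pim1, a kinase gene under STAT3, by 0.57 (adjusted p = 0.0056) and Cebpb by 0.83 (adjusted p = 0.042). The Cebpb call ended (adjusted p 0.0629 to 0.119) without Fed 1, Fed 4, Fed 5, Fasted 2, Fasted 3 or Fasted 4, and the other 3 held with every library left out. Among the listed genes that did not pass were Socs3 (0.10, limma, adjusted p = 0.742) and Junb (0.33, adjusted p = 0.667). Bcl3 (-0.38, adjusted p = 0.393) and Cish (-0.93, adjusted p = 0.101) did not pass either. The ligands Il6, Osm and Il11 were below the filter.

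Of 20 acute-phase genes tested, 2 rose and none fell (against 5.72% and 5.25% of all genes tested), with a median of 0.77. Lbp, which binds bacterial lipopolysaccharide, rose from 108 ± 21.1 (SD, n = 5) to 194 ± 38.4 (SD, n = 4) (log2 0.85, limma, adjusted p = 0.0102). Cd14, its co-receptor, rose by 0.55 (limma, adjusted p = 0.0361), a call that was lost without Fed 1, 2, 4 or 5 or without Fasted 1, 3 or 4 (adjusted p 0.054 to 0.0766). Serpina3n (1.84, adjusted p = 0.124) and Itih3 (1.37, adjusted p = 0.156) did not pass, and without Fed 2 both did, at 0.0456 and 0.0433. Alb varied 40.2-fold between the same libraries, and the part of hepatocyte RNA in this list was not tested.

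Among 11 liver-type transcription factors tested, 4 rose and none fell (against 5.72% and 5.25% of all genes tested), with a median of -0.03. Cebpa rose from 932 ± 131 (SD, n = 5) to 1353 ± 79.4 (SD, n = 4) normalized counts (log2 0.55, limma, adjusted p = 0.00688). Hnf4g rose by 0.42 (adjusted p = 0.0146) and Nr1h4, the bile acid receptor FXR, by 0.46 (adjusted p = 0.019), with the Nr1h4 call lost without Fasted 4 (adjusted p = 0.063). Cebpb, given above, was the remaining one. Foxa1, Foxa2, Foxa3 and Onecut1 were below the filter.

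Of 26 genes tested for coagulation factors and their inhibitors, 3 rose and 1 fell, with a median of 0.31. These counts stand against 5.72% and 5.25% of all genes tested. Proz, the vitamin K-dependent protein Z, fell from 223 ± 45.7 (SD, n = 5) to 98.3 ± 9.02 (SD, n = 4), by 1.15 on the log2 scale (limma, adjusted p = 0.00166). Pros1, the anticoagulant protein S, rose by 0.44 (limma, adjusted p = 0.00917). Thbd, the endothelial thrombin receptor thrombomodulin, rose by 0.48 (adjusted p = 0.0336), and Vwf, von Willebrand factor, by 0.53 (adjusted p = 0.0434). Of 6 endothelial markers tested, Pecam1 rose by 0.35 (limma, adjusted p = 0.0107) and Kdr fell by 0.26 (limma, adjusted p = 0.0269), with a median of 0.04 and summed levels of 9493 to 11033 normalized counts in fed and 9814 to 10528 in fasted libraries. Their part in the Thbd and Vwf values was not tested. The Thbd call was lost without Fed 1, 4 or 5 or Fasted 1, 3 or 4 (adjusted p 0.0544 to 0.0947), and the Vwf call without Fed 1, 2, 3 or 4 or Fasted 1, 2 or 4 (adjusted p 0.0561 to 0.139). The Kdr call was lost without Fed 2, Fasted 3 or Fasted 4 (adjusted p 0.0669 to 0.0946).

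Of 14 fibrinolysis genes tested, 2 rose and none fell (against 5.72% and 5.25% of all genes tested), with a median of 0.05. S100a10, the plasminogen-binding partner of annexin A2, rose from 1517 ± 237 (SD, n = 5) to 3082 ± 317 (SD, n = 4) (log2 1.03, limma, adjusted p = 0.000424). Plat, the tissue plasminogen activator, rose by 0.41 (limma, adjusted p = 0.0237), which was lost without Fed 1, Fasted 1, Fasted 2 or Fasted 3 (adjusted p 0.0551 to 0.0693). Plau, the urokinase of the tubule, had a log2 difference of -0.26 (adjusted p = 0.211) and Cpb2 one of 0.74 (adjusted p = 0.272).

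The 15 fibrinogen receptors and binding partners tested had a median of 0.19, and 1 rose, where 5.72% of all genes tested did. That was Icam1, by 0.59 (limma, adjusted p = 0.0372). That call was lost without Fed 1, 2, 4 or 5 or Fasted 2, 3 or 4 (adjusted p 0.0594 to 0.0861). The integrin genes Itgb3 (0.64, adjusted p = 0.0785) and Itgav (0.19, adjusted p = 0.103) did not pass, and Itgb3 did without Fasted 4 (0.0463) and Itgav without Fed 5 (0.0478). Sdc1, syndecan-1, had a log2 difference of 0.19 (adjusted p = 0.287).

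Among 11 relatives tested that share the fibrinogen C-terminal domain, 1 rose and 1 fell, with a median of 0.06. Of all genes tested 5.72% rose and 5.25% fell. Angptl4, the fasting-induced inhibitor of lipoprotein lipase, rose from 692 ± 347 (SD, n = 5) to 5080 ± 504 (SD, n = 4) normalized counts (log2 3.03, limma, adjusted p = 0.000314). Angpt1, an endothelial Tie2 ligand, fell by 0.38 on the log2 scale (limma, adjusted p = 0.0363). Its call ended without Fed 1, 2 or 4 or Fasted 1, 3 or 4 (adjusted p 0.0676 to 0.11). Tnxb (0.25, adjusted p = 0.0672) and Angptl2 (-0.15, adjusted p = 0.259) did not pass.

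Of 14 genes for chain assembly and secretion, 5 fell and none rose (against 5.25% and 5.72% of all genes tested), with a median of -0.20. The means of Fga and Fgg were higher in the fasted libraries. Fam20c, the secretory pathway kinase, fell from 1826 ± 222 (SD, n = 5) to 1074 ± 77.8 (SD, n = 4), by 0.76 on the log2 scale (limma, adjusted p = 0.000793). Calr, the chaperone calreticulin, fell by 0.82 (limma, adjusted p = 0.0197) and Hsp90b1, the chaperone GRP94, by 0.69 (limma, adjusted p = 0.0318). Pdia3, a disulfide isomerase, fell by 0.64 (limma, adjusted p = 0.0419) and Uggt1, the folding sensor, by 0.23 (limma, adjusted p = 0.0359). The Calr call was lost without Fasted 2 or Fasted 4 (adjusted p 0.0523 and 0.0589). The Hsp90b1, Pdia3 and Uggt1 calls were all lost without Fed 1, Fed 2, Fasted 2, Fasted 3 or Fasted 4, with adjusted p up to 0.0887, 0.115 and 0.116. The Hsp90b1 call was also lost without Fed 3, the Pdia3 call without Fasted 1 and the Uggt1 call without Fed 4 or Fasted 1.

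Of 19 tubule injury genes tested, Krt8 and Krt18 rose and none fell (against 5.72% and 5.25% of all genes tested), with a median of 0.31. Krt8 rose by 0.57 (limma, adjusted p = 0.0155), a call lost without Fasted 4 (adjusted p = 0.0539). Krt18 rose by 0.50 (limma, adjusted p = 0.0468), lost without any of Fed 1, 4 and 5 and Fasted 1 to 4 (adjusted p 0.0575 to 0.144). Cdkn1a (1.12, adjusted p = 0.114) and Anxa3 (0.31, adjusted p = 0.0652) did not pass, and Cdkn1a did without Fed 3 (0.0166). Havcr1, highest in Fed 5, had a log2 difference of -1.10 (adjusted p = 0.442). The tubule injury list summed to 27989 to 32608 normalized counts in fed and 25546 to 31292 in fasted libraries.

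The libraries held 18902645 to 32469467 reads in genes, and markers of kidney cell types were present. The marker lists do not tell whether medulla was present beside cortex. All 12 proximal tubule, 9 thick limb and distal tubule and 5 podocyte markers listed passed the filter, with summed levels of 795039 or more, 219609 or more and 9434 or more normalized counts. No podocyte gene or tested macrophage gene (5 of each) passed the test between groups, where 5.72% of all genes tested rose and 5.25% fell. With so few genes, no call is near those shares and does not show that these cells were unchanged. Slc34a1, the phosphate transporter of the proximal tubule, fell by 0.58 (limma, adjusted p = 0.0377), and Trpm6, a magnesium channel of the distal tubule, rose by 0.41 (limma, adjusted p = 0.0427). In the collecting duct list Slc4a1, an anion exchanger, and Foxi1, the factor of intercalated cells, fell by 0.58 and 0.46 on the log2 scale (limma, adjusted p = 0.00677 and 0.0316). In the fibroblast list Dcn, decorin, rose by 0.83 and Col1a1 fell by 0.87 (limma, adjusted p = 0.00254 and 0.0103). In the adipocyte list Plin1, the lipid droplet protein perilipin, was 0 to 1.84 normalized counts in fed and 1.92 to 70.7 in fasted libraries, highest in Fasted 2 (limma, adjusted p = 0.0266). That whole list summed to 269 to 1887 in fed and 228 to 521 in fasted libraries. The calls of Dcn, Col1a1, Slc4a1 and Pecam1 held with every library left out. That of Plin1 ended without Fed 1 or Fasted 4 (adjusted p 0.0588 to 0.0752), and without Fasted 2 the gene was under the filter. That of Foxi1 ended without Fed 1, Fed 2, Fasted 1, Fasted 3 or Fasted 4 (0.0661 to 0.0863). That of Slc34a1 ended without any library but Fed 5 (0.0522 to 0.117), and that of Trpm6 without any but Fed 2 and Fasted 1 (0.051 to 0.113). The part of these cell types in the chain levels was not tested. Of 8 markers of platelets, the blood cells that carry fibrinogen protein, Itga2b (mean 189), Gp1ba (56.1) and Ppbp (14.8) passed the filter. None of these 3 passed the test, which is also near the shares over all genes tested. Pf4 was 5.26 to 12.9 and Gp9 1.78 to 8.59 normalized counts over the libraries, and Gp1bb, Gp6 and Treml1 were 0 to 5.14. These 5 were under the filter. Fed 3 had the highest share of the ribosomal entry Rn45s, at 5.53% of its normalized counts. The labels give no batch or pairing.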

How the data were processed

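The 9 TruSeq libraries were made from TRIzol extracts of kidney cortex, per the labels' protocols. FastQC, TopHat2 2.0.9, HTSeq 0.9.1 and DESeq2 (version given as 3.5) are named in the submitters' processing notes, which list both mm10 and hg19. The gene annotation and the use of strand are not given in the sources used here. The deposited signal is a read count that the authors scaled by a library-wide size factor. Each of the 161194 values above 0 came out as a whole number of reads (tolerance 0.01 reads), which gave the reads back. A read was worth 0.744 to 1.32 normalized counts. The authors' deposited log2 fold changes are pulled towards 0 and were only copied.

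The main fit was limma 3.58.1 (R 4.3.3) on log2(value + 1), using its mean-variance trend and two-sided tests, on the 15098 genes whose mean reached 10, with Benjamini-Hochberg adjustment and calls at 0.05. For a low gene this scale understates a fold change. A 2nd fit held log2 Alb beside the group. Relations used exact permutations within groups (2880 orders), with scipy 1.17.1 and numpy 2.4.6. Correlations over all libraries are given with no test. The linear-scale model, the ratios between chains, and the fits without Fed 3 and Fasted 1 (highest Rn45s) or Fed 5 and Fasted 2 (highest Krt20) were chosen after seeing the data. Gene positions came from GENCODE M21 on GRCm38, and promoters from RefSeq (GRCm38.p6), where all 3 chains matched.

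The chains and lists were chosen with earlier results of these data known. Genes named by rule are the chains and Alb, and up to 4 members of each list with the smallest adjusted p. They include the 6 hepatocyte genes with the highest mean, 3 neighbours on each side, and the 5 genes most like each chain. Names of predicted genes and pseudogenes were left out of the last. Other genes were named outside that rule, among them Pdia3, Krt20, Havcr1, Cps1, Ahsg, Apoa1 and the cell type markers. The alternatives were other pseudocounts and filters, TMM, CPM, edgeR 4.0.16, DESeq2 1.42.0, 4 other hepatocyte genes in place of Alb, and each library left out. Tested on simulated counts of 15098 genes, 200 of them altered, the fit found 78% of 2-fold and 100% of 4-fold differences, and 5 of its 183 calls were false. The simulation gave every gene the same dispersion and altered genes only upwards. In the data the SD of log2 values within groups was 0.40 for Fga, 0.62 for Fgg, 1.13 for Fgb and 1.83 for Alb. The simulated rates therefore do not give the power for these genes. That each library is a separate mouse follows from the design text, which gives 4 to 5 mice per group.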

Additional observations from a re-analysis of the deposited data

Results flagged for a closer look

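The search covered 156 groups of 4 or 5 libraries, over the 72 genes named by rule and the chain ratios. In 10 of these groups, the gap of 1 library to the nearest of the others took up most of the group's range. Chance alone gives about 1 in 20 such groups. Fgb per 100 normalized counts of Alb was 16.4 in Fasted 2 and 6.96 to 7.13 in the other fasted libraries. In Fed 2, the library with the most Alb, Serpina3k was 2237 normalized counts (13.4 to 651 elsewhere in the group), Ugt2b35 was 77.3 (0.744 to 15.8) and Plat was 1642 (1168 to 1275). C8a was 496 in Fed 5 (880 to 969), and Icam1 was 591 in Fed 3 (460 to 496). In the fasted group Cd14 was 196 in Fasted 3 (122 to 132), Krt18 was 464 in Fasted 4 (330 to 352), Krt8 was 1534 in Fasted 1 (2223 to 2327) and Rbm46 was 3.86 in Fasted 2 (11.5 to 13.02).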

How the results depend on the processing

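The log2 differences of the chains kept their direction under the pseudocounts, filters, scalings and tools tried, with 1.38 to 1.67, 0.58 to 1.47 and 0.86 to 1.28 for Fga, Fgb and Fgg over the libraries left out; at equal Alb these were 1.19 to 1.58, -0.06 to 0.40 and 0.70 to 1.31. No paired analysis was possible because the labels give no replicate numbers that groups share. The number of genes changed was 861 to 1959 with 1 library left out, with the largest losses without Fasted 4 (861), Fed 1 (1004), Fasted 3 (1062) and Fasted 1 (1084), and 2349 with DESeq2. Without Fed 3 and Fasted 1 it was 1068, with 1 acute-phase, 2 coagulation, 1 fibrinolysis, 1 fibrinogen-domain, 3 assembly, 4 tubule injury and 0 hepatocyte genes. Without Fed 5 and Fasted 2, coagulation had 2, receptors 0 and tubule injury 0. No filter gave 1 acute-phase and 1 tubule injury gene, CPM gave 1 tubule injury gene, and DESeq2 gave 3 receptors. With 1 library left out the counts were 1 to 3 for acute-phase, 3 to 5 for interleukin-6, 2 to 5 for transcription factors, 2 to 3 for coagulation, 1 to 3 for fibrinolysis, 0 to 1 for receptors, 1 to 2 for fibrinogen-domain, 1 to 7 for assembly, 0 to 6 for tubule injury and 0 to 4 for hepatocyte genes.

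With group means removed, r with 1 library left out was 0.940 to 0.977 for Fgb with Alb, -0.162 to 0.624 for Fgg with Alb (also -0.0357 without Fed 2) and 0.830 to 0.955 for Fga with Fgg. For ratios against Alb it was -0.977 to -0.923 for Fga over Fgb, -0.952 to -0.863 for Fgg over Fgb and -0.437 to 0.415 for Fga over Fgg. The last also changed sign without Fed 3 (-0.180), without Fasted 2 (-0.0257), with the 4 other hepatocyte genes (-0.0407), without Fed 3 and Fasted 1 (-0.168) and without Fed 5 and Fasted 2 (-0.561). Without Fed 3 and Fasted 1, r was -0.967 for Fga over Fgb and -0.882 for Fgg over Fgb. Without Fed 5 and Fasted 2, left out after the data were seen, r with group differences kept in was 0.805 for Fgg with Alb and 0.814 for Fgb with Fgg. Over all 9 libraries these were 0.475 and 0.599. Such values are given with no test. With 4 and 5 libraries a group, the cause of these changes was not tested.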
